A study of Mus musculus with 12 samples.

Results

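Caveolins and tetraspanins are families of small membrane proteins that gather other proteins and lipids into patches of the plasma membrane. The genes described here are 2 caveolins, Cav1 and Cav2, and the tetraspanins Cd9, Cd81, Cd151, Tspan7, Tspan8 and Tspan12, in mouse Min6 cells. A row of the expression table was taken when its platform annotation gave exactly 1 gene symbol and that symbol was one of these 8. This found 1 probe set for each of 7 genes among 35556 rows, 21789 of which carry 1 symbol. Tspan7 was not analysed here. The 8 genes were listed with their levels in the 3 culture conditions already known, so their differences below are a description and lend no support to any statement about the family.

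Caveolin-1 is the main coat protein of caveolae, small cholesterol-rich pits of the plasma membrane, and it needs the cavins, a separate family of coat proteins, to shape them. Caveolin-2 joins caveolin-1 in the same oligomers and depends on it to reach the cell surface. Tetraspanins cross the membrane several times and bind integrins, proteases and each other, and several of them mark extracellular vesicles. In beta cells caveolin-1 has been linked to the small GTPase Cdc42 and to the release of insulin granules, Cd9 has been used as a surface marker of beta cell subsets in human islets, and Cd81 has been used as a marker of immature beta cells.

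Min6 is a mouse insulinoma line that makes insulin. All cultures began with 5 days in the serum-containing medium, DMEM with 15% Fetal Calf Serum and 2-Mercaptoethanol, at 20% oxygen, and Pen-Strep was present in every medium. Under the return condition (RC) they then spent 5 days at 5% oxygen in a serum-free medium, DMEM-F12 with Apo-Transferrin, Progesterone, Putrescine and Selenite, and a final 5 days back in serum at 20% oxygen. Under the defined condition (DC) they stayed serum-free at 5% oxygen for the final 10 days. Under the classic condition (CC) they stayed in serum at 20% oxygen throughout. Each condition had 4 arrays from a single experiment, so the spread between arrays may be technical in part. Serum, oxygen, base medium and supplements changed together, and their shares in a difference cannot be told apart. RC cells had 5 serum-free days and DC cells 10, so RC against DC also holds the length of that exposure.

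The 12 arrays had medians of 7.92 to 8.05 on the log2 scale and interquartile ranges of 2.42 to 2.75. Array RC 3 stood apart, with a mean correlation of 0.976 with the other RC arrays, against 0.989 to 0.990 for those, and it had the narrowest interquartile range, followed by DC 4 and DC 2. The 8 beta cell markers had a mean log2 level of 11.5 to 11.6 on RC arrays, 11.6 to 11.8 on DC arrays and 11.6 on CC arrays, and Ins2, an insulin gene, read 13.02 ± 0.05 in RC, 13.05 ± 0.04 in DC and 13.03 ± 0.03 in CC (SD, n = 4 each). The only beta cell marker to pass the test was the zinc transporter Slc30a8, at 11.54 ± 0.14 in RC, 11.99 ± 0.12 in DC and 11.68 ± 0.07 in CC (limma adjusted p = 0.0092 for RC against DC and 0.040 for DC against CC). Of the marker lists of other cell types, the 6 endothelial genes lay at mean levels of 6.91 to 7.14 in RC, 6.95 to 7.12 in DC and 6.87 to 6.99 in CC, with 0 of 6 above the median of all values (7.99). The 7 fibroblast genes had mean levels of 7.39 to 7.78 in RC, 7.39 to 7.74 in DC and 7.33 to 7.52 in CC, and the 5 immune genes of 7.16 to 7.40 in RC, 7.24 to 7.31 in DC and 7.06 to 7.20 in CC, with 3 and 1 above that median. The 4 measured acinar and ductal genes lay at 7.49 to 7.90 in RC, 7.50 to 7.81 in DC and 7.48 to 7.65 in CC, with 1 above it. None of these genes passed the test in any comparison, and the part of the slightly higher RC and DC levels in the results below was not tested. The glucagon gene Gcg, an alpha cell marker, was bright in all conditions (12.37 ± 0.13 in RC, 12.24 ± 0.19 in DC, 12.41 ± 0.07 in CC) and did not pass either.

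The expression of Cav1, Cav2, Cd9 and Cd151 was lower in DC than in CC, by 1.70-fold to 2.35-fold, and on all RC arrays it lay below the CC range. Cd81 was lower by a smaller step, and Tspan8 and Tspan12, both dim on the array, overlapped between all conditions. In RC against CC, only Cav1 and Cd9 of these genes passed the limma test over all rows. No array was taken when the 5 serum-free days of RC ended, so how far the RC cells had returned was not measured. In bulk RNA, fewer cells that express a gene and less of its RNA per cell cannot be told apart.

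Cav1 read 8.36, 8.10, 8.20 and 8.18 in RC, 8.20, 7.87, 7.87 and 7.95 in DC, and 9.23, 9.11, 9.24 and 9.24 in CC (log2 values, replicates 1 to 4). Every RC and DC array lay below every CC array, with a gap of 0.75 between RC and CC and of 0.91 between DC and CC. The RC and DC values overlapped, DC 1 being the highest of its group. The log2 difference was -1.23 ± 0.08 for DC against CC (moderated SE, n = 4 per group; 2.35-fold lower; 95% interval -1.41 to -1.05) and -0.997 ± 0.08 for RC against CC (interval -1.18 to -0.82). For RC against DC it was 0.24 ± 0.08 (interval 0.06 to 0.42), which did not pass the threshold over all rows.

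Cav2, which lies next to Cav1 in the genome, read 8.96, 8.74, 8.68 and 8.96 in RC, 8.69, 8.07, 8.39 and 8.03 in DC, and 9.54, 9.49, 9.29 and 9.31 in CC. The DC arrays were spread the most, with DC 1 just above the lowest RC array and the others below all RC arrays, and the CC arrays lay above all others. The log2 difference was -1.11 ± 0.13 for DC against CC (2.16-fold lower; 95% interval -1.41 to -0.82), -0.57 ± 0.13 for RC against CC (interval -0.87 to -0.28) and 0.54 ± 0.13 for RC against DC (interval 0.25 to 0.83). Neither RC difference of Cav2 passed the threshold over all rows (limma adjusted p = 0.085 against CC and 0.058 against DC). Whether Cav2 and Cav1 differ in how far RC lay from CC was not tested.

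Cd9, a tetraspanin that binds integrins and is abundant on vesicles, read 9.61, 9.56, 9.41 and 9.89 in RC, 9.71, 9.55, 9.63 and 9.80 in DC, and 10.39, 10.36, 10.50 and 10.65 in CC. The RC and DC arrays shared a range, and all of them lay below CC. Cd9 was 1.75-fold lower in DC than in CC (log2 difference -0.81 ± 0.10, 95% interval -1.03 to -0.58) and 1.81-fold lower in RC than in CC (-0.86 ± 0.10, interval -1.08 to -0.63). The difference between RC and DC was -0.05 ± 0.10, with an interval of -0.27 to 0.17.

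Cd151, a tetraspanin that binds laminin-receptor integrins, read 10.28, 10.31, 10.23 and 10.38 in RC, 10.14, 9.90, 10.26 and 9.53 in DC, and 10.78, 10.59, 10.75 and 10.79 in CC. The 4 RC arrays were tightly grouped between DC and CC, although DC 3 overlapped them, and DC 4 was the lowest of all. The log2 difference was -0.77 ± 0.13 for DC against CC (1.70-fold lower, 95% interval -1.04 to -0.49), -0.43 ± 0.13 for RC against CC (interval -0.70 to -0.15) and 0.34 ± 0.13 for RC against DC (interval 0.06 to 0.62). Neither RC difference of Cd151 passed the threshold over all rows (limma adjusted p = 0.20 against CC and 0.27 against DC).

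Cd81, the partner of Cd9 in many membrane complexes, read 9.21, 9.23, 9.38 and 9.32 in RC, 9.09, 9.22, 9.54 and 9.38 in DC, and 9.55, 9.47, 9.68 and 9.73 in CC. RC lay wholly below CC by a gap of 0.09, and DC 3 reached into the CC range. The log2 difference was -0.32 ± 0.10 for RC against CC (95% interval -0.53 to -0.11) and -0.30 ± 0.10 for DC against CC (interval -0.51 to -0.09), and neither passed the threshold. Of the 20 alternative settings described below, 5 called Cd81 as lower in DC than in CC. They were median centring, array spread as a covariate, array weights, a replicate block and leaving out DC 3. Array weights alone called it as lower in RC than in CC.

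**Figure D1:**
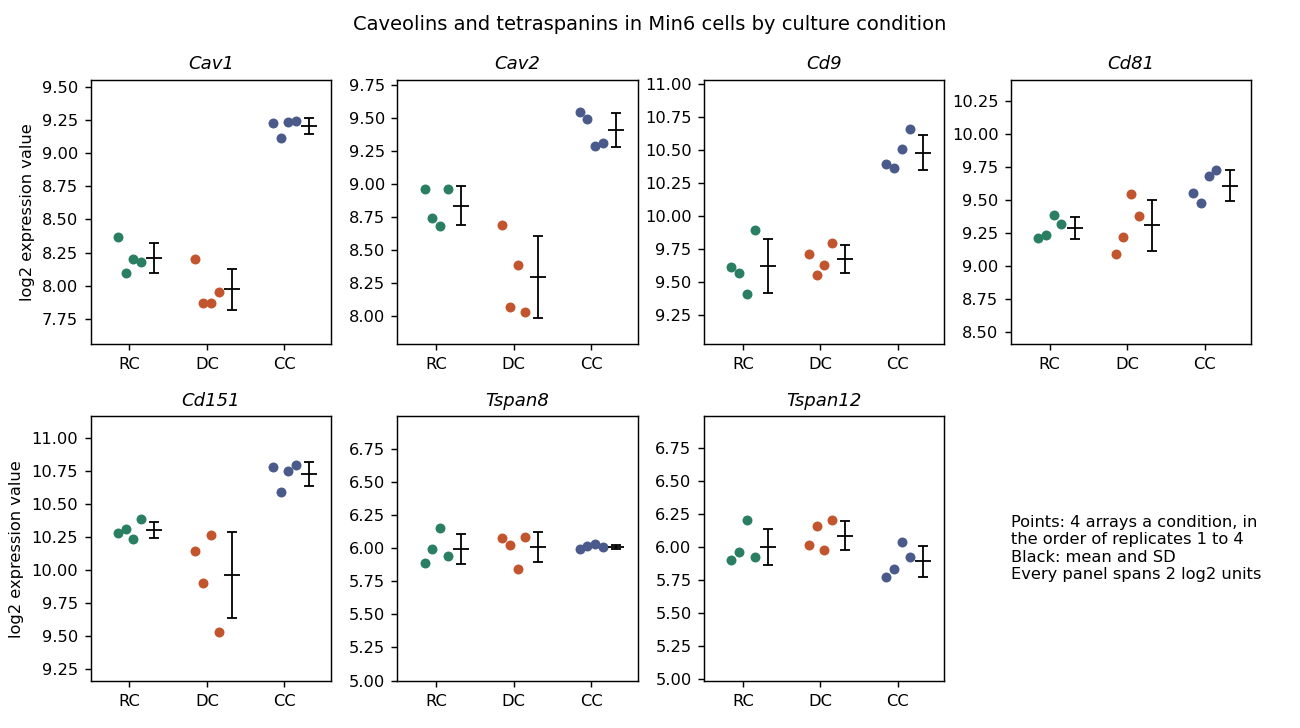
Log2 expression value of each caveolin and tetraspanin (vertical axis) on the 4 arrays of RC, DC and CC (horizontal axis), with the mean and SD in black; every panel spans the same number of log2 units. Cav1, Cav2, Cd9 and Cd151 are below the CC arrays on all RC and DC arrays, Cd81 overlaps CC on 1 DC array, and Tspan8 and Tspan12 stay near 6.

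Tspan8, known from epithelial tumours, read 5.89, 5.997, 6.15 and 5.94 in RC, 6.08, 6.02, 5.84 and 6.09 in DC, and 5.997, 6.02, 6.03 and 6.01 in CC. Tspan12, a partner of the receptor Fzd4 in norrin signalling, read 5.91, 5.96, 6.21 and 5.93 in RC, 6.01, 6.16, 5.98 and 6.21 in DC, and 5.77, 5.83, 6.04 and 5.92 in CC. Both sat about 2 log2 units below the median of all values, where 10.4% and 10.3% of the rows with 1 symbol were dimmer, and with no detection calls used here a level this low could not be told from background. The 95% interval of Tspan8 was -0.17 to 0.14 in RC against DC, -0.17 to 0.14 in RC against CC and -0.16 to 0.15 in DC against CC. That of Tspan12 was -0.27 to 0.10 in RC against DC, -0.08 to 0.30 in RC against CC and 0.01 to 0.38 in DC against CC, and its highest value on an RC array was on RC 3.

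The same differences can be read as counts of genes past a limma adjusted p under 0.05 over all rows. For DC against CC, 4 of 7 members were called, all lower (Cav1, Cav2, Cd9 and Cd151), where 4.32% of all rows were called lower. The groups did not overlap for the same 4, and for 7.96% of all rows they did not overlap with DC below CC. For RC against CC, 2 of 7 were called, both lower (Cav1 and Cd9), where 0.675% of all rows were called lower. The groups did not overlap for 5 of 7, with RC below CC, against 5.45% of all rows. For RC against DC, 0 of 7 were called by limma, where 2.63% of all rows were called in either direction, and for 0 of 7 were the groups free of overlap, against 6.29% of all rows. An unadjusted p under 0.05 was reached there by 3 of 7 members, all higher in RC (Cav1, Cav2 and Cd151). The share of all rows that reached it is not given here, so this count has no share to be set against. The choice of the members used these comparisons, so nothing is read from their counts against the shares of all rows. The median log2 difference over the 7 members was -0.77 for DC against CC, -0.43 for RC against CC and -0.01 for RC against DC, beside medians over all rows of 0.04, 0.03 and -0.01. DC and RC were set against the same CC arrays, so their differences from CC are not independent of each other.

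**Figure D2:**
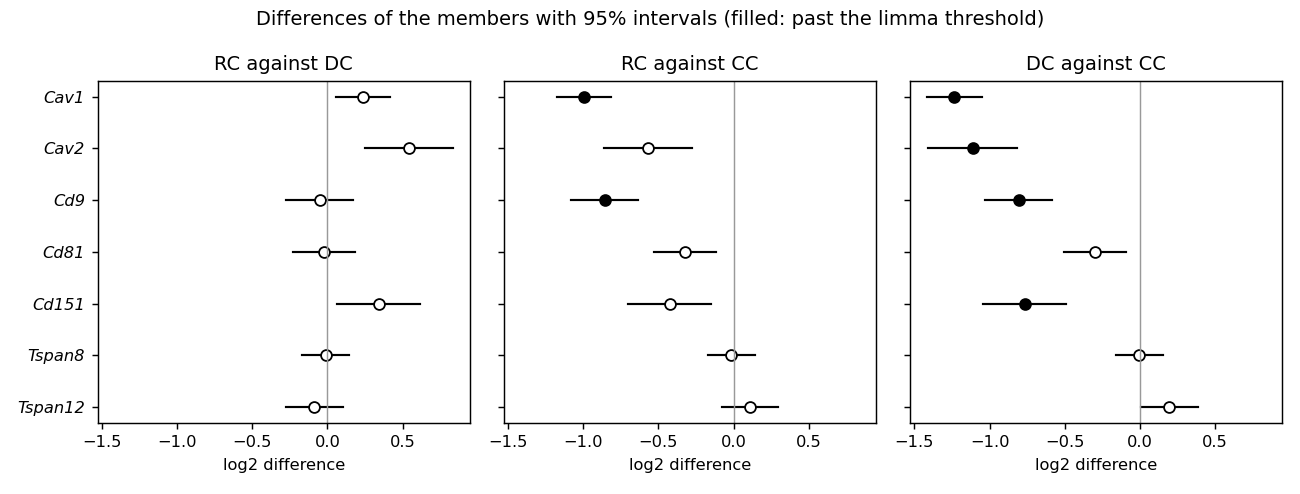
Log2 difference (horizontal axis) of each member for RC against DC, RC against CC and DC against CC, with 95% intervals from the limma fit; filled points passed the threshold over all rows. In DC against CC the 4 filled points lie between -1.23 and -0.77, in RC against CC the 2 filled points at -0.997 and -0.86, and in RC against DC no point is filled.

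Single arrays and other settings moved these values little for Cav1 and Cd9 and more for Cav2 and Cd151. The 4 calls of DC against CC and the 2 of RC against CC were made under all 20 alternative settings. The DC difference ranged from -1.31 to -1.17 for Cav1, from -1.24 to -0.87 for Cav2, from -0.91 to -0.73 for Cd9 and from -0.87 to -0.52 for Cd151. The smallest sizes for Cav2 and Cd151 came without DC 2, DC 4 and RC 3, whose values had the narrowest spread (an alternative chosen after seeing the data), which gave -0.87 and -0.52. Cav2 and Cd151 both read lowest on DC 2 and DC 4.

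Without RC 3, the mean of RC was 8.21 for Cav1, 8.89 for Cav2, 9.69 for Cd9, 10.32 for Cd151 and 9.25 for Cd81, and Cav2 was then called in RC against DC (0.59). Without DC 1, the array on which both caveolins were highest in DC, Cav1 (0.31) and Cav2 (0.67) were called as higher in RC than in DC, and Cav2 was called as lower in RC than in CC (-0.57). Without DC 4, Cd151 was called as lower in RC than in CC (-0.43), and without DC 3, Cd81 was called as lower in DC than in CC (-0.38). Within CC, arrays 1 and 2 differed from arrays 3 and 4 by 0.22 for Cav2, by -0.20 for Cd9 and by -0.19 for Cd81, which is less than the DC differences of these genes. For Tspan12 the CC arrays differed by -0.18, about the size of its difference of 0.20 between DC and CC.

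**Figure D3:**
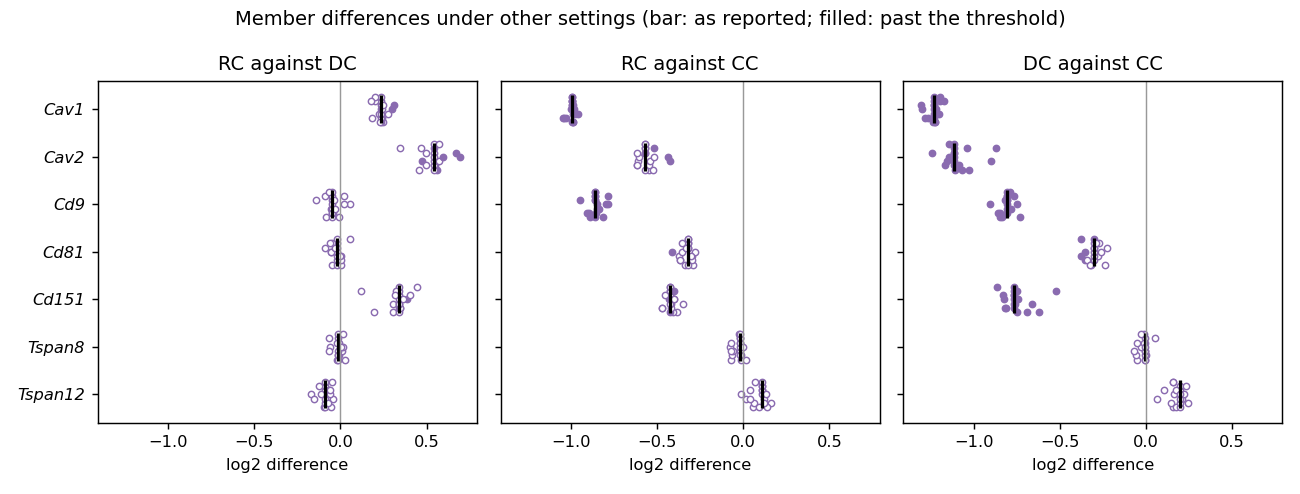
Log2 difference of each member (horizontal axis) for the 3 comparisons under the alternative settings (small circles, filled where the gene passed the threshold) and as reported (black bar). Cav1 and Cd9 stay filled and near the bar in RC against CC and DC against CC, while Cav2 and Cd151 in DC against CC reach up to -0.87 and -0.52.

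The promoters of the 4 genes that were lower in DC are printed because these genes moved together in that comparison. The sequences are RefSeq's, of build GRCm38.p6, from 250 bases before to 50 bases after the annotated start, and all 8 listed genes were found in that promoter table. They are written 5′ to 3′ along the gene, in lower case, with matches to the searched motifs in capitals. The motifs, searched on both strands, were the GC box GGGCGG, the hypoxia element cores ACGTG and GCGTG, the sterol element TCACNCCAC, the TEAD box GGAATG, the TATA box TATAAA and the serum response (CArG) box. Cav1 (chr6:17306085-17306384, plus strand), Cav2 (chr6:17280935-17281234, plus strand), Cd9 (chr6:125494711-125495010, minus strand) and Cd151 (chr7:141467112-141467411, plus strand) read as follows.
Cav1: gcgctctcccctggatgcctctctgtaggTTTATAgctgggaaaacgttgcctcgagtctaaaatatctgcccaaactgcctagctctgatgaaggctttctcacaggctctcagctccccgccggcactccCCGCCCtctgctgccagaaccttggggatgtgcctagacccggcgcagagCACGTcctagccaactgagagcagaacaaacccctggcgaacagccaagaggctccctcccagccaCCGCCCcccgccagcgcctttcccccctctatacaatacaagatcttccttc
Cav2: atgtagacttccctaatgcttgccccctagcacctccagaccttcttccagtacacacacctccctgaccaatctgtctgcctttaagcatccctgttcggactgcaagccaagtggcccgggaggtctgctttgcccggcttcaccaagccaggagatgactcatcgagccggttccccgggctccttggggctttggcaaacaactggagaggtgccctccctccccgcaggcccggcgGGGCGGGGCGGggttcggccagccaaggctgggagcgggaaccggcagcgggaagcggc
Cd9: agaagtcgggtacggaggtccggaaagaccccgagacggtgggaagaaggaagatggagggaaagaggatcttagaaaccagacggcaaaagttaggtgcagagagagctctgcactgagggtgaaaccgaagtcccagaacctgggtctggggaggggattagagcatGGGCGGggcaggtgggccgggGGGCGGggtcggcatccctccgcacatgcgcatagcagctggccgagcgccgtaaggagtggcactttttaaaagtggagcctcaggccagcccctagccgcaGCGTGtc
Cd151: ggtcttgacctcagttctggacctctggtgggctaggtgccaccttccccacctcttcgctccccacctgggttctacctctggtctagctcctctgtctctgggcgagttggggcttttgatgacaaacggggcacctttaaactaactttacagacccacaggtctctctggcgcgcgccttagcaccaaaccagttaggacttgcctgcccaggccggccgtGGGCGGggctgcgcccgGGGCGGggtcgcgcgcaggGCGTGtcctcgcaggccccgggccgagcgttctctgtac

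Each of these windows holds 2 GC boxes, which overlap by a base in Cav2, and 35.7% of the 32851 promoter windows in the table hold at least 1. The Cav1 window holds 1 ACGTG core, on the minus strand at position -68 from the start, found in 19.6% of all windows. It also holds a TATAAA match on the minus strand at position -221, found in 13.6%. The Cd9 and Cd151 windows each hold 1 GCGTG core after the start, at position 43 in Cd9 and 11 in Cd151, found in 32.4%. The sterol element, found in 1.24% of all windows, and the CArG box, found in 1.63%, were not in these 4 windows. The GC content of the 4 windows was 59.3% for Cav1, 64.3% for Cav2, 61.3% for Cd9 and 64.3% for Cd151, beside a median of 52.7% over all windows. Cav1 and Cd151 each have a second annotated start, whose window held none of these motifs. The window of Cd81, which was not called, held 3 GC boxes, 1 GCGTG core and 1 TATA box at 65.7% GC. That of Tspan7 held 4 GC boxes, 1 GCGTG core and 1 TEAD box at 70.3% GC. The window of Tspan8 held none of the motifs, at 51.7% GC, and that of Tspan12, at 44.0% GC, held 1 TEAD box and 1 TATA box. GC boxes and a GC content above the median of all windows were also found for Cd81, which was lower by a smaller step, and for Tspan7, which was not analysed. The windows of Tspan8 and Tspan12, both dim on the array, had no GC box and a GC content below that median. Whether promoter motifs bear on the differences was not tested. These matches say only which letters are present.

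Cav2 and Cav1 are neighbours on chromosome 6 in the RefSeq annotation, between Tes, which encodes a focal adhesion protein, and Met, which encodes the receptor of hepatocyte growth factor. These and the other neighbouring genes were added after the data were seen and were picked by position alone. Met read 9.16, 9.23, 8.68 and 9.30 in RC, 8.69, 8.27, 8.50 and 8.36 in DC, and 9.65, 9.66, 9.56 and 9.62 in CC. It fell in DC against CC by 1.17 ± 0.13 on the log2 scale (2.25-fold; limma adjusted p = 0.00013) and was higher in RC than in DC by 0.64 ± 0.13 (adjusted p = 0.017). The call of RC against DC ended without DC 2, RC 1, RC 2 or RC 4 (0.065 at most) and with only RC and DC in the fit (0.088). Met in RC was 0.53 ± 0.13 below CC, which did not pass (adjusted p = 0.087). Tes, on the other side, was at 8.24 ± 0.06 in RC, 8.11 ± 0.15 in DC and 8.31 ± 0.06 in CC (SD, n = 4) and passed in no comparison.

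**Figure D4:**
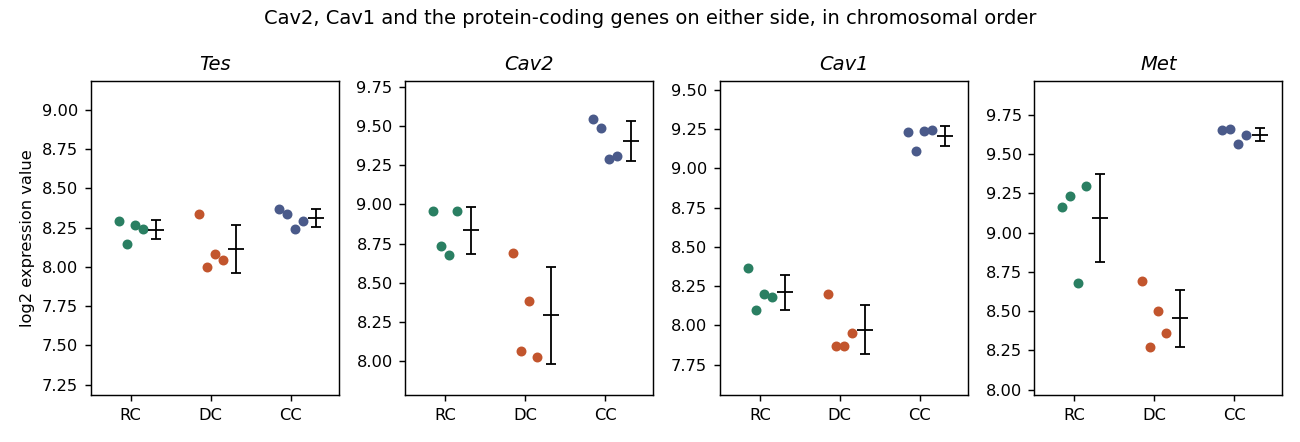
Log2 expression value (vertical axis) of Tes, Cav2, Cav1 and Met on each array of RC, DC and CC, with the mean and SD in black, in their order along chromosome 6. Cav2, Cav1 and Met are lowest in DC and highest in CC, with DC differences of -1.11, -1.23 and -1.17, and Tes varies by less.

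Around the tetraspanin members, 9 other neighbours were measured, and 1 of them passed in any comparison, as did 7.31% of all rows. This was Ptprr, next to Tspan8, which fell in RC by 0.35 ± 0.07 against DC (limma adjusted p = 0.012, the call ending without RC 1 and with only RC and DC in the fit, at 0.068 at most) and by 0.48 ± 0.07 against CC (adjusted p = 0.0074).

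Of 11 measured genes of caveolae and of flotillin domains, 0 passed limma in DC against CC (5 with an unadjusted p under 0.05), where 6.64% of all rows passed. Further, 0 passed in RC against CC (0 unadjusted), where 0.796% of all rows did, and 1 passed in RC against DC, where 2.63% did. With 11 genes, counts this small do not set the list apart from all rows. The share of all rows with an unadjusted p under 0.05 is not given here. The median log2 difference of the 11 genes in DC against CC was 0.11, beside 0.04 over all rows. Of these genes, 6 were dimmer than the median of all values. With rows at or below that median left out of the fit, 3 were called in DC against CC. Of the 17758 rows kept, 2598 were called there. The list was chosen with earlier results of these data known, so its counts are a description. Cavin1, the cavin that caveolae require, was at 7.56 ± 0.16 in RC, 7.66 ± 0.07 in DC and 7.47 ± 0.07 in CC, below the median of all values, and its difference in DC against CC had a 95% interval of 0.02 to 0.36. Cavin3 was at 9.45 ± 0.19 in RC, 9.22 ± 0.18 in DC and 9.56 ± 0.07 in CC (DC against CC -0.35 ± 0.10, adjusted p = 0.073, and down to 0.039 over the alternatives, with the call made without RC 2). In the other direction, Flot1 (0.26 ± 0.08, adjusted p = 0.073) and Cavin4 (0.21 ± 0.07, adjusted p = 0.085) were higher in DC than in CC and did not pass either. Ehd4, a membrane-shaping ATPase of the family found at the necks of caveolae, was higher in RC than in DC by 0.54 ± 0.13 (adjusted p = 0.048). That call ended under 13 of 20 alternatives (adjusted p up to 0.27), among them each single array left out except CC 2, DC 1 and RC 3, and without DC 1 Ehd4 was called as lower in DC than in CC (adjusted p = 0.0080) and the list had 2 calls there. In RC against CC, the genes with the smallest p were Cavin4 (0.11 ± 0.07) and Cavin1 (0.09 ± 0.08), with adjusted p = 0.70 and 0.76.

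Among the other tetraspanins, 7 of 25 measured genes fell in DC against CC and 0 rose, where 4.32% of all rows fell. The median difference of the 25 was 0.06, beside 0.04 over all rows. This list was chosen with earlier results of these data known. Nothing is read from its counts against the shares of all rows. Tspan4, which is found in migrasomes, the vesicles left behind by moving cells, fell by 0.80 ± 0.06 (1.74-fold; limma adjusted p = 4.5e-06). Its values were 10.00, 10.07, 10.09 and 10.08 in RC, 9.58, 9.49, 9.53 and 9.44 in DC, and 10.28, 10.25, 10.31 and 10.39 in CC, so that no groups overlapped. It was higher in RC than in DC by 0.55 ± 0.06 (adjusted p = 0.00017), and its RC level was 0.25 ± 0.06 below CC, which did not pass (adjusted p = 0.069). Rom1, known from photoreceptor discs, fell in DC by 0.50 ± 0.08 (adjusted p = 0.0024), Tspan3 by 0.43 ± 0.08 (adjusted p = 0.0045) and Tspan13 by 0.33 ± 0.06 (adjusted p = 0.0077). The call of Tspan13 ended without DC 2, DC 4 and RC 3 together (adjusted p = 0.055).

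The remaining calls of that list in DC against CC were near the threshold. Tspan6 (-0.57 ± 0.15, adjusted p = 0.046) lost its call without any 1 array except CC 2, DC 1, DC 3 and RC 3, and Cd82 (-0.36 ± 0.10, adjusted p = 0.043) without any 1 array except CC 2, DC 3, RC 3 and RC 4. Tspan31 (-0.42 ± 0.11, adjusted p = 0.043) lost it without any 1 array except DC 3 and RC 3. Over the alternatives the adjusted p reached 0.37, 0.28 and 0.21 for these genes. The count of 7 was 4 when any 1 of CC 1, CC 3, CC 4, DC 2, RC 1 and RC 2 was left out. All 7 were among the 17 genes of the list brighter than the median of all values, and 0 of the 8 dimmer ones passed in any comparison. With rows at or below that median left out of the fit, 1751 of 17758 rows fell in DC against CC, and the list again had 7 calls.

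Cd82, a tetraspanin known as a suppressor of metastasis, was the only gene of that list called in RC against CC, where 0.796% of all rows passed. It read 10.66, 10.66, 10.61 and 10.82 in RC, 11.08, 10.97, 11.23 and 10.81 in DC, and 11.33, 11.21, 11.55 and 11.44 in CC, and fell in RC by 0.69 ± 0.10 against CC (adjusted p = 0.0074). Its RC arrays were the lowest of the 3 groups, with DC 4 just inside their range. In RC against DC it was at -0.33 ± 0.10 (adjusted p = 0.11). Of that list, Tspan4 alone was called in RC against DC, where 2.63% of all rows passed, and 2 more genes joined it without DC 4. The vesicle tetraspanin Cd63 was at 11.85 ± 0.21 in RC, 11.79 ± 0.29 in DC and 12.21 ± 0.23 in CC and passed in no comparison.

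**Figure D5:**
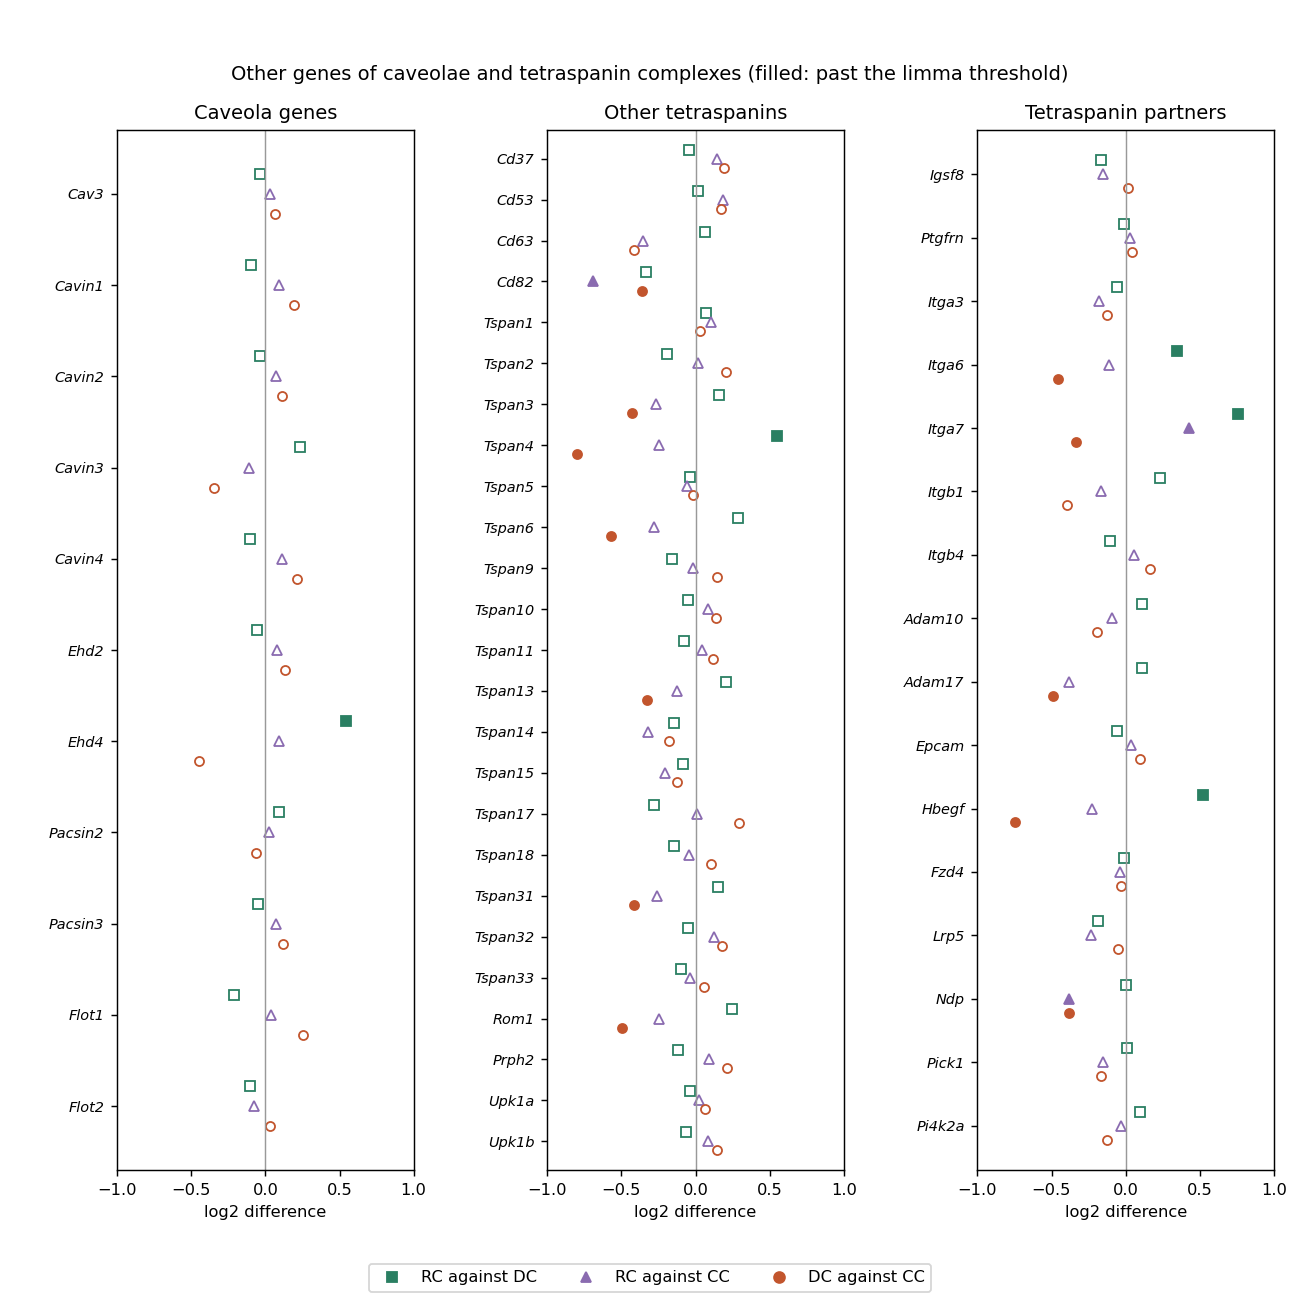
Log2 difference (horizontal axis) of genes of caveolae, other tetraspanins and tetraspanin partners, for RC against DC (squares), RC against CC (triangles) and DC against CC (circles); filled symbols passed the limma threshold. In DC against CC no caveola gene is filled, and the 7 filled tetraspanins and 5 filled partners all lie below 0.

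Of 16 measured partners of tetraspanins, 5 fell in DC against CC and 0 rose, where 4.32% of all rows fell, and their median difference was -0.15, beside 0.04 over all rows. The partners, too, were listed with earlier results of these data known. Their counts in this and the other comparisons are therefore a description, and nothing is read from them against the shares of all rows. With rows at or below the median of all values left out of the fit, 1751 of 17758 rows fell, and 4 partners were called. Hbegf, the growth factor whose precursor binds Cd9, fell by 0.74 ± 0.09 (limma adjusted p = 0.00021), the shedding protease gene Adam17 by 0.49 ± 0.09 (adjusted p = 0.0040), the integrin chain gene Itga6 by 0.46 ± 0.08 (adjusted p = 0.0029) and the norrin gene Ndp by 0.38 ± 0.07 (adjusted p = 0.0073). The fifth was Itga7, a laminin-receptor chain, at -0.33 ± 0.07 (adjusted p = 0.011). Itga6 and Ndp were dimmer than the median of all values in their mean over the arrays. Itgb1, the chain shared by most integrins, was at -0.39 ± 0.11 and just missed the threshold (adjusted p = 0.051). The integrin chain Itga3, a close partner of Cd151, was at 8.68 ± 0.10 in RC, 8.73 ± 0.07 in DC and 8.86 ± 0.06 in CC and passed in no comparison, and neither did Igsf8 and Ptgfrn, which bind Cd9 and Cd81.

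In RC against DC, 3 of these 16 partners were higher and 0 lower, where 1.45% of all rows were higher. Itga7 was higher by 0.76 ± 0.07 (adjusted p = 9.3e-05), Hbegf by 0.52 ± 0.09 (adjusted p = 0.0054) and Itga6 by 0.34 ± 0.08 (adjusted p = 0.032, 0.12 at most over the alternatives, with the call lost without DC 1, DC 2, DC 3, RC 1, RC 2 or RC 4 and under 2 other settings). In RC against CC, where 0.796% of all rows passed, Itga7 was higher by 0.43 ± 0.07 (adjusted p = 0.018) and Ndp lower by 0.38 ± 0.07 (adjusted p = 0.038). Ndp was dim, at 6.94 ± 0.12 in RC and 7.32 ± 0.07 in CC. The call of Itga7 ended without any 1 of the CC arrays or RC 2 and under 1 other setting (0.074 at most). That of Ndp ended without any 1 of the CC arrays, DC 2, RC 1, RC 2 or RC 4 and under 2 other settings (0.15 at most). Hbegf in RC was 0.22 ± 0.09 below CC and did not pass (adjusted p = 0.40).

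Genes whose log2 values followed those of Cav1, Cav2 and Cd9 most closely over the 12 arrays were sought among 809 genes with a mean above the median of all values and a range of group means of at least 0.5. Since all arrays enter, these correlations mostly reflect the differences between the conditions, and they are given as a description. For Cav1 the closest were Sulf2, a sulfatase acting on heparan sulfate (r = 0.975), Ckap4 (0.971), Tjap1 (0.966) and Mdga1 (0.963). Sulf2 had means of 8.32 in RC, 8.21 in DC and 8.96 in CC. For Cav2 they were Emc4, a subunit of the membrane protein insertion complex of the endoplasmic reticulum (r = 0.988), Rbm15b (0.987), Rorb (0.983) and the nucleotide sugar transporter Slc35d1 (0.976), the last with means of 8.44 in RC, 8.07 in DC and 8.88 in CC. For Cd9 they were the ion channel Tmem63a (r = 0.984), the epoxide hydrolase Ephx1 (0.960), Cltrn, a membrane protein of beta cells (0.954), and the sulfate transporter Slc26a2 (0.946). Ephx1 had means of 8.82 in RC, 8.92 in DC and 10.07 in CC, and Cltrn of 8.69, 8.74 and 9.93 in the same order. Like Cd9, the 4 genes listed for it each had an RC mean slightly below the DC mean. For Cd9 that difference was smaller than its SE (-0.05 ± 0.10). Among the members themselves, the correlation over the 12 arrays was 0.90 between Cav1 and Cav2, 0.92 between Cav1 and Cd9, 0.92 between Cav2 and Cd151, and 0.50 between Cav2 and Cd81.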

How the data were processed

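The authors deposited 1 log2 expression value per probe set and array for 12 arrays, from biotinylated cDNA of total RNA, per the labels' protocols. Their span of 3.69 to 14.5 is that of log2 array values. For the software, the normalization and the build, the sources used here give nothing. No further normalization was applied. Gene symbols come from the platform annotation, and 21698 of 21789 rows with 1 symbol matched a RefSeq gene by identifier, which changed 0 symbols. None of the member rows repeats another row.

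A mean per condition was fitted to all rows and the 12 arrays in R 4.3.3 with limma 3.58.1, by lmFit, contrasts.fit and eBayes, with 9 residual degrees of freedom, two-sided tests, and Benjamini-Hochberg adjustment over 35556 rows at a threshold of 0.05. A difference carries its moderated SE and a level its SD over 4 arrays. The number of arrays limits the precision. The code was tested on simulated data. Members, gene lists (caveola genes, other tetraspanins, tetraspanin partners, cell markers) and tests were chosen with earlier results of these data known. By rule, each list gives up to 4 called genes per comparison with the largest difference, or 2 genes of lowest p if there was no call. For the 3 members with the largest difference, the 4 best correlated genes are given, without predicted, microRNA, small nucleolar and olfactory receptor genes. Flot1, Tspan13, Tspan31, Cd63, Itgb1, Itga3, Igsf8, Ptgfrn, the fifth called partner and the neighbouring genes were named after their values were seen.

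The labels do not say whether the array replicate numbers pair samples, and the correlation of deviations between equally numbered arrays ran from -0.36 to 0.47. Alternatives were quantile normalization, median centring, array spread as a covariate, array weights, only the groups compared, dim rows left out, a replicate block, single arrays left out and, added later, the 3 arrays of narrowest spread left out. Tspan7 and Amy2a1 were not analysed here.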

Additional observations from a re-analysis of the deposited data

Results flagged for a closer look

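Of 132 groups of 4 arrays checked (44 genes in 3 conditions), 3 had 1 array set apart from the others by more than Dixon's 95% critical value for the gap over the range, and chance sets about 1 in 20 groups apart in this way. Cav1 on array CC 2 read 9.11, against 9.23 to 9.24 on the other CC arrays. Cavin1 on DC 1 read 7.56, against 7.68 to 7.70 on the other DC arrays, and Rom1 on DC 4 read 8.14, against 8.40 to 8.44.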

How the results depend on the processing

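The 4 calls of members in DC against CC and the 2 in RC against CC held under all 20 alternatives. Leaving out single arrays gave 0 to 2 called members in RC against DC (2 without DC 1, 1 without RC 3), 2 to 3 in RC against CC and 4 to 5 in DC against CC. It gave 522 to 2892 called rows in RC against DC (2892 without RC 3), against 936 with all arrays, 57 to 352 in RC against CC, against 283, and 1549 to 3718 in DC against CC, against 2360 (1549 without DC 2, 1570 without CC 1, 3718 without RC 3). RC against CC fell to 57 to 151 without any 1 CC array, RC 1, RC 2 or RC 4, and RC against DC to 574 to 578 without DC 2, RC 2 or RC 4 and to 522 without RC 1. Caveola genes gave 0 to 1 calls in RC against DC and 0 to 2 in DC against CC, other tetraspanins 1 to 3 in RC against DC and 4 to 8 in DC against CC, and partners 2 to 3, 0 to 3 and 5 to 6 in RC against DC, RC against CC and DC against CC.

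In RC against DC, array weights gave 6413 called rows, the interquartile range as a covariate 1737 and a fit of the compared groups alone 462. In RC against CC, array weights gave 2818, the covariate 636, dim rows left out 439 and the arrays without DC 2, DC 4 and RC 3 580. In DC against CC, array weights gave 4840. The calls in DC against CC were 823 higher and 1537 lower, 502 and 1698 with arrays centred on a common median, and 1203 and 1253 with the covariate. In RC against CC they were 43 higher and 240 lower, 272 and 364 with the covariate, 1477 and 1341 with array weights, 118 and 193 without RC 3, and 239 and 341 without the 3 arrays.

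Members called in RC against DC, 0 as reported, were 1 with quantile normalization, the covariate or dim rows left out and 3 with array weights. In RC against CC they were 5 with array weights and 4 with only the compared groups or without the 3 arrays. Caveola genes in RC against DC, 1 as reported, were 3 with array weights and 0 with centring, only the compared groups or without the 3 arrays. In DC against CC, 0 as reported, they were 2 with quantile normalization, 3 with array weights or dim rows left out and 1 with only the compared groups. Other tetraspanins in RC against DC, 1 as reported, were 3 with quantile normalization, 2 with the covariate or without the 3 arrays and 6 with array weights. In RC against CC, 1 as reported, they were 2 with centring, the covariate or dim rows left out and 7 with array weights, and in DC against CC, 7 as reported, they were 4 with only the compared groups. Partners in RC against DC, 3 as reported, were 6 with array weights, and in RC against CC, 2 as reported, 5 with array weights and 1 with only the compared groups. Cavin1 in RC against CC turned to -0.0137 with array weights, which gave RC 3 a weight of 0.16. The cause was not tested in these cases.

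In 2 of 12 pairs, the array of the first-named group correlated best with the equally numbered array of the other group. The reverse match was not checked. With 4 arrays to match, some such pairs arise without pairing, and deviations of a whole array also enter. Whether the numbers pair the samples is therefore not settled. A replicate block gave 689, 68 and 1852 called rows in RC against DC, RC against CC and DC against CC, and 0 calls among caveola genes in RC against DC and among partners in RC against CC, and it ended the call of Itga6 in RC against DC (adjusted p = 0.097), as did a fit of the compared groups alone (0.091), leaving 2 partners called there. It added Cd81 to the members called in DC against CC. Another probe set could not be tried, since each measured member has 1. The 4 arrays per condition limit the precision, and the level of background is not known.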
